A study of Rattus norvegicus with 6 samples.

Results

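Amino acid transporters are the membrane carriers of the Slc1, Slc3, Slc6, Slc7, Slc36, Slc38 and Slc43 families, and they are described here in renal tissue of rats with chronic kidney disease (CKD) and of Sham rats. The members were taken by symbol, as every gene of the deposited table named after one of these families, with Slc6a6 and Slc6a12, the taurine and betaine carriers, left out. That gave 62 of 31368 genes. One of the 62, Slc7a6os, lies on the opposite strand of Slc7a6 and is no carrier, and 2 of them share the symbol Slc6a20a. The series holds 3 CKD and 3 Sham libraries of renal tissue from Sprague-Dawley rats, all male and labelled wild type, and its design text gives an age of 8 weeks for the animals in which the disease model was set up. No source used here names the procedure that produced the disease. Nothing in the labels says that each library is a separate animal, so every p-value here rests on the variation between libraries, and that variation may be technical.

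The kidney filters amino acids freely and takes nearly all of them back in the proximal tubule. Sodium-coupled and exchange carriers of the brush border bring them into the cell, and a different set in the basolateral membrane lets them out to the blood. Some carriers work only as a pair of chains, a heavy chain of the Slc3 family that brings the pair to the membrane and a light chain of the Slc7 family that moves the substrate. Other members supply growing or stressed cells, report amino acids to the growth regulator mTORC1 at the lysosome, or clear neurotransmitters.

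Of the 62 members 41 had enough counts to be tested and 21 did not. By edgeR's quasi-likelihood test 0 of the 41 passed an adjusted p of 0.05 in either direction, where 3.82% of all genes tested were called (2.67% higher and 1.15% lower in CKD). At an unadjusted p under 0.05 there were 4 higher and 6 lower members, where 23.8% of all genes passed (13.5% higher and 10.3% lower). DESeq2 called 3 members higher (Slc7a2, Slc43a3 and Slc38a9) and 3 lower (Slc6a13, Slc7a5 and Slc38a3), where it called 16.2% of all genes, and limma-voom called 0. The median log2 fold change was -0.42 over the members and -0.01 over all genes. When scaled by library totals alone the median was 0.0043 over the members and 0.41 over all genes. In that setting 4 members were called higher and 0 lower, where 14.5% of all genes were called and 91.9% of those calls were higher.

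All CKD libraries lay on one side of all Sham libraries in 13 of the 41 members, 6 higher and 7 lower. The share of such genes was 31.2% over all genes tested, so the members' count lies near that background. The spread among Sham libraries was wider than that among CKD libraries in 33 of the 41, with a median SD of 0.262 in CKD and 0.737 in Sham on the scale of log2 (CPM + 0.5), where CPM is a gene's share of the library's counts, after TMM scaling and set to a common total. Over all genes tested the spread was wider in Sham for 79%, and those medians were 0.208 in CKD and 0.443 in Sham. Library totals ran from 15918035 to 17503644 counts. Mitochondrial genes took 8.83% to 10.8% of counts in CKD, and 14.4%, 37.9% and 15.3% in Sham 1, 2 and 3.

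**Figure D1:**
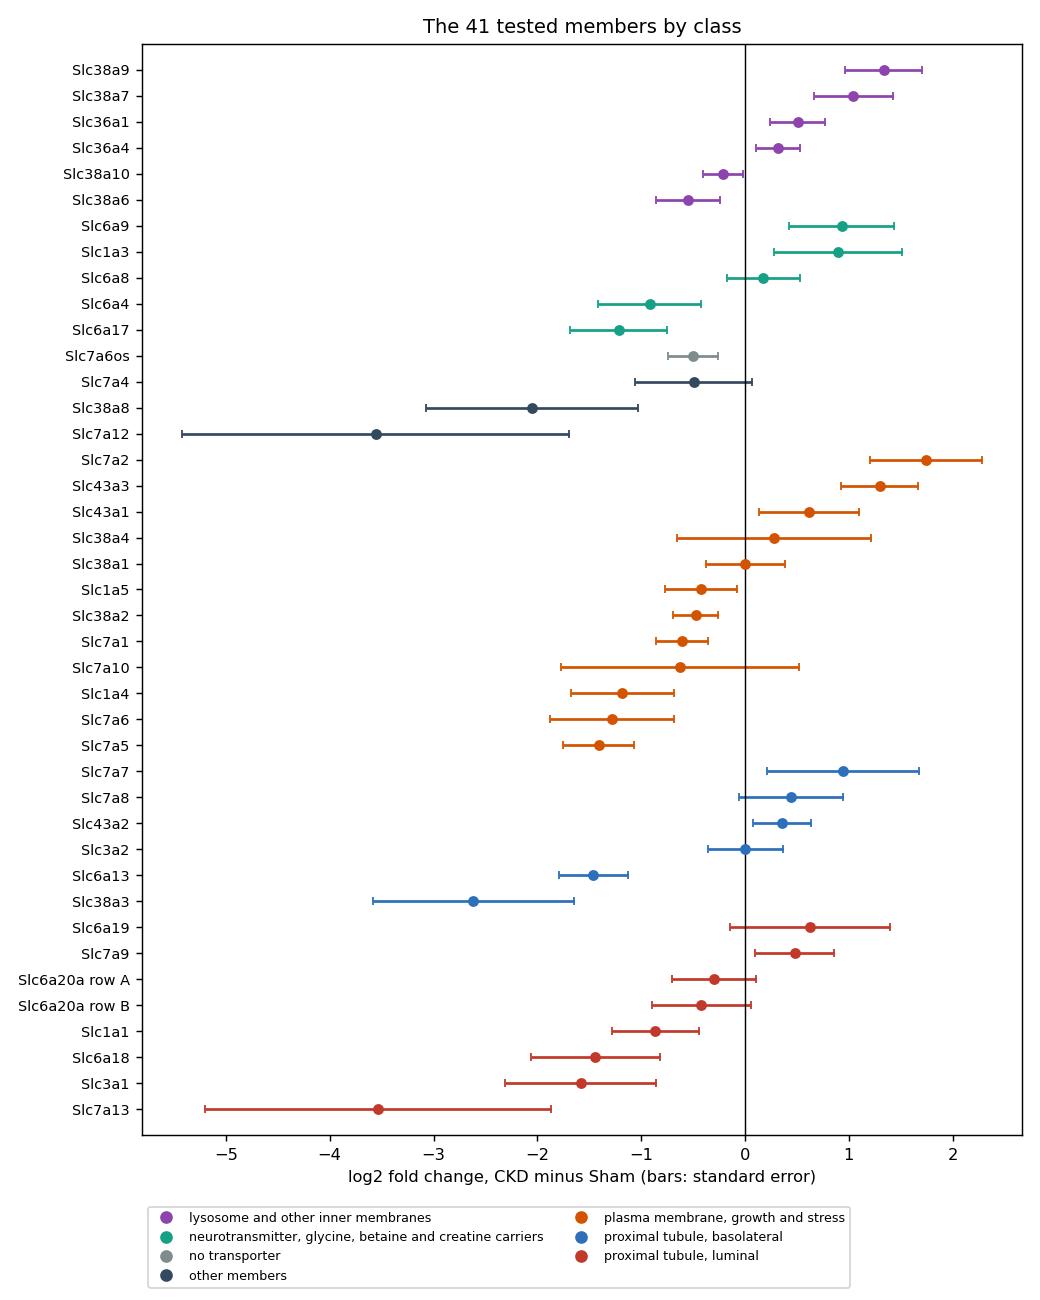
Log2 fold change of each tested member, CKD minus Sham, on the horizontal axis, with the standard error as a bar and the class as colour. Values run from -3.56 (Slc7a12) to 1.75 (Slc7a2), and 0 of the 41 passed the adjusted threshold; Slc6a20a row A and row B are the genes ENSRNOG00000006010 and ENSRNOG00000068642.

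Cystine and basic amino acids are taken up at the brush border by a carrier of paired chains. Slc3a1 encodes rBAT, the heavy chain of the brush border, which pairs with the light chain b0,+AT (Slc7a9) and, in the straight segment, with AGT1 (Slc7a13). Loss of rBAT or b0,+AT causes cystinuria in humans. Slc3a1 had 761, 806 and 2031 CPM in CKD 1, 2 and 3, against 7262, 1655 and 1865 CPM in Sham 1, 2 and 3. Sham 1 stood far above every other library, and CKD 3 was higher than Sham 2 and Sham 3. On the log2 scale the fold change was -1.58 ± 0.72 (SE; edgeR adjusted p = 0.232), and it was -0.59 without Sham 1 and -2.20 without CKD 3.

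Slc7a13 had 8.83, 50.2 and 618 CPM in CKD 1, 2 and 3, against 6766, 681 and 409 CPM in Sham 1, 2 and 3. The groups overlapped through CKD 3, and the libraries of CKD spanned a 69.98-fold range and those of Sham a 16.6-fold range. Slc7a13 had a fitted value of -3.54 ± 1.67 on the log2 scale (SE; edgeR adjusted p = 0.246), which was -1.30 without Sham 1 and -6.47 without CKD 3. Slc7a9, the other partner of rBAT, had 285, 258 and 227 CPM in CKD 1, 2 and 3, against 148, 109 and 297 CPM in Sham 1, 2 and 3. Sham 3 was the highest library for this light chain and Sham 2 the lowest, and its log2 fold change was 0.48 ± 0.38 (SE; edgeR adjusted p = 0.485). It was 0.17 without Sham 2 and 0.93 without Sham 3.

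Levels of the chains can be compared per kilobase of gene length. Per kilobase, Slc3a1 averaged 526 ± 316 CPM in CKD and 1576 ± 1394 CPM in Sham (SD, n = 3 each). Slc7a13 averaged 124 ± 187 CPM per kilobase in CKD and 1437 ± 1973 in Sham, and Slc7a9 averaged 161 ± 18.1 in CKD and 115 ± 61.9 in Sham. The ratio of Slc7a13 to Slc3a1 was 0.0145, 0.0780 and 0.381 in CKD 1, 2 and 3, against 1.17, 0.515 and 0.274 in Sham 1, 2 and 3. The ratio of Slc7a9 to Slc3a1 was 0.535, 0.456 and 0.160 in CKD, against 0.0291, 0.0940 and 0.227 in Sham. In both ratios CKD 3 lay inside the Sham range and CKD 1 and CKD 2 lay outside it. With AGT1 set against b0,+AT, Slc7a13 ran from 0.0271 to 2.38 times Slc7a9 per kilobase in CKD and from 1.21 to 40.1 times in Sham.

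**Figure D2:**
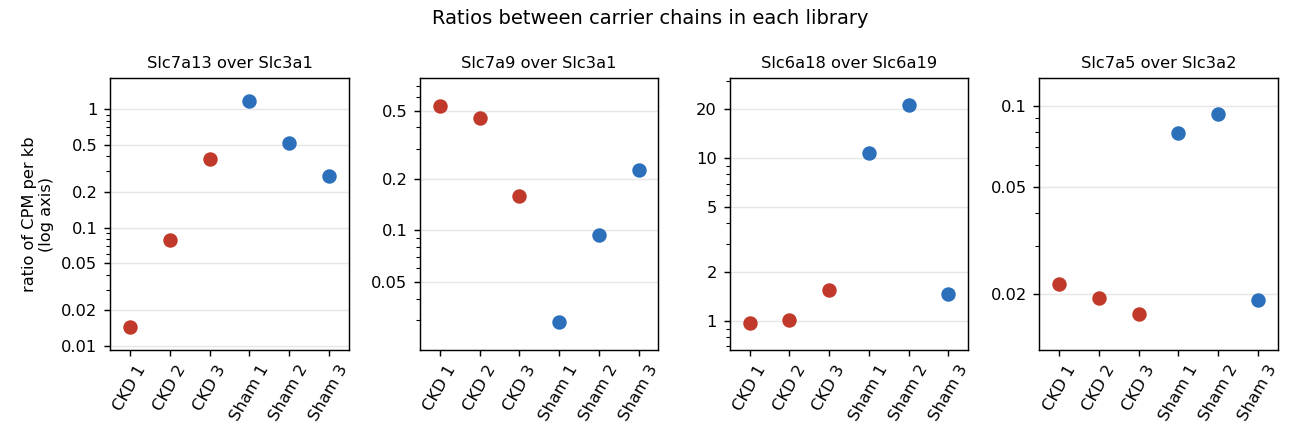
Ratios of CPM per kilobase between carrier chains in each library, on log axes. The ratio of Slc7a13 to Slc3a1 was lowest in CKD 1 (0.0145) and highest in Sham 1 (1.17), that of Slc7a9 to Slc3a1 ran the opposite way, and those of Slc6a18 to Slc6a19 and of Slc7a5 to Slc3a2 put Sham 1 and Sham 2 apart from the other libraries.

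Slc7a12, which encodes Asc-2, an exchanger of small neutral amino acids known from rodents, is described here because of its values. It had 0.917, 3.68 and 53.2 CPM in CKD 1, 2 and 3, against 647, 18.4 and 14.4 CPM in Sham 1, 2 and 3. The order of the libraries was close to that of Slc7a13, with Sham 1 highest and CKD 1 lowest. Its log2 fold change of -3.56 ± 1.86 (SE; adjusted p = 0.289 in edgeR) turned to 0.20 without Sham 1.

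Promoter sequences from RefSeq (build GRCr8) were at hand for 46 of the 61 member symbols, as 50 windows from 250 bases before to 50 bases after the gene's start, and not for Slc7a13 or Slc38a3. HNF4 and HNF1 are transcription factors of the proximal tubule. The windows of Slc3a1 and Slc7a12 are shown because they hold letters of HNF4 or HNF1. Both genes also had their highest level in Sham 1 and their lowest in CKD 1. Other members with that order of libraries, such as Slc6a18, Slc6a13 and Slc38a10, are not shown. The matches were thus part of the choice and say nothing about the genes with that order. For HNF4 the letters CAAAGTCCA were searched on both strands, and for HNF1 the letters GTTAAT and ATT with 1 base of any kind between them. Slc3a1 lies on the minus strand with its window at chr6:15394700-15394999, and Slc7a12 on the minus strand with its window at chr2:88868054-88868353. Capitals mark, in Slc3a1, a match to the antioxidant response element TGACNNNGC followed by the HNF4 letters on the opposite strand, which begin at position -89 from the gene's start, and, in Slc7a12, the HNF1 letters, which begin at position -88.
Slc3a1: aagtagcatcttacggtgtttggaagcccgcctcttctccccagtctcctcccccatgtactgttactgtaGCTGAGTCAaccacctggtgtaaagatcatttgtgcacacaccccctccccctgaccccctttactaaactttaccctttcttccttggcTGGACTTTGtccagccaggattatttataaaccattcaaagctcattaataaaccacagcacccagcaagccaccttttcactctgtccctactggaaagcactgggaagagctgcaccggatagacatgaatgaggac
Slc7a12: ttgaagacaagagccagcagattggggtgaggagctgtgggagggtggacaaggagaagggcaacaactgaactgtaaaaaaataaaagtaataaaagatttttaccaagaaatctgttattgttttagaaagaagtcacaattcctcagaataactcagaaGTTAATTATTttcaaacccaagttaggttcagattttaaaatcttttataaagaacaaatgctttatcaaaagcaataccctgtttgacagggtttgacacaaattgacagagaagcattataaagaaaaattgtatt
The HNF4 letters stood in 0.391% of all 33469 windows and in 1 of the 50 windows of members. The HNF1 letters stood in 0.335% of all windows and in 2 of the 50, those of Slc7a12 and Slc7a15. The antioxidant response letters stood in 12.1% of all windows and in 8 of the 50. A match of letters is a description and not evidence that a factor binds there.

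Other luminal members are coupled to sodium or protons. Slc6a19 encodes B0AT1, the main carrier of neutral amino acids in the early proximal tubule and the gene of Hartnup disorder in humans. Slc6a18 encodes its relative B0AT3, a carrier of glycine and other small neutral amino acids. Slc6a18 had 133, 190 and 378 CPM in CKD 1, 2 and 3, against 1216, 341 and 349 CPM in Sham 1, 2 and 3. Slc6a19 had 135, 186 and 242 CPM in CKD 1, 2 and 3, against 112, 15.9 and 236 CPM in Sham 1, 2 and 3. Sham 1 was highest for Slc6a18, whereas for Slc6a19 Sham 2 lay far below every other library and CKD 3 was highest. Their log2 fold changes were -1.44 ± 0.62 for Slc6a18 and 0.63 ± 0.77 for Slc6a19 (SE; edgeR adjusted p = 0.212 and 0.664). Without Sham 1 that of Slc6a18 was -0.60, and that of Slc6a19 was 0.08 without Sham 2 and 1.5003 without Sham 3. Per kilobase, Slc6a18 stood at 0.976, 1.02 and 1.55 times Slc6a19 in CKD 1, 2 and 3, against 10.8, 21.3 and 1.46 times in Sham 1, 2 and 3.

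Slc6a20a encodes SIT1, the proline carrier, and its symbol stands on 2 genes of the table whose reads may be shared. The first of them (ENSRNOG00000006010) had 50.7, 57.1 and 66.8 CPM in CKD 1, 2 and 3, against 107, 31.4 and 76.1 CPM in Sham 1, 2 and 3. The second (ENSRNOG00000068642) had 14.5, 29.5 and 34.5 CPM in CKD, against 59.3, 20.8 and 24.8 CPM in Sham. Both had their highest level in Sham 1, and their log2 fold changes of -0.30 and -0.42 turned positive without Sham 1 (0.08 and 0.16). Slc1a1 encodes EAAT3, the carrier of glutamate and aspartate, and had 74.6, 53.6 and 72.3 CPM in CKD, against 178, 52.3 and 134 CPM in Sham. Its groups overlapped through Sham 2, and its log2 fold change was -0.86 ± 0.42 (SE; edgeR adjusted p = 0.257). Slc36a2, which encodes the proton-coupled glycine and proline carrier PAT2, was not tested and had 6 counts in all, every one in CKD 2.

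Of the 8 luminal members tested, 6 had a negative and 2 a positive fold change and 0 passed in edgeR (0 at an unadjusted p under 0.05), with a median of -0.64. That median was -0.22 without Sham 1 and -0.998 without Sham 2. The 12 general proximal tubule markers had a median of 0.06, which was 0.11 without Sham 1 and -0.38 without Sham 2, and 0 of them passed in edgeR (0 higher and 1 lower at an unadjusted p under 0.05). The summed level of these markers ran from 10932 to 14505 CPM in CKD and was 14421, 5934 and 19756 CPM in Sham 1, 2 and 3, and none of them was at 0. DESeq2 called 1 of the 12 markers lower and limma-voom 0. With library totals alone, no filter, no robust step or without CKD 3, 1 was called lower as well. Slc22a12 was the marker lower at an unadjusted p under 0.05. It had 84.3, 131 and 273 CPM in CKD 1, 2 and 3, against 977, 628 and 639 CPM in Sham 1, 2 and 3. Its groups did not overlap (log2 fold change -2.20 ± 0.48, SE, edgeR adjusted p = 0.0514). In bulk tissue fewer cells of a type and less RNA per cell cannot be told apart.

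**Figure D3:**
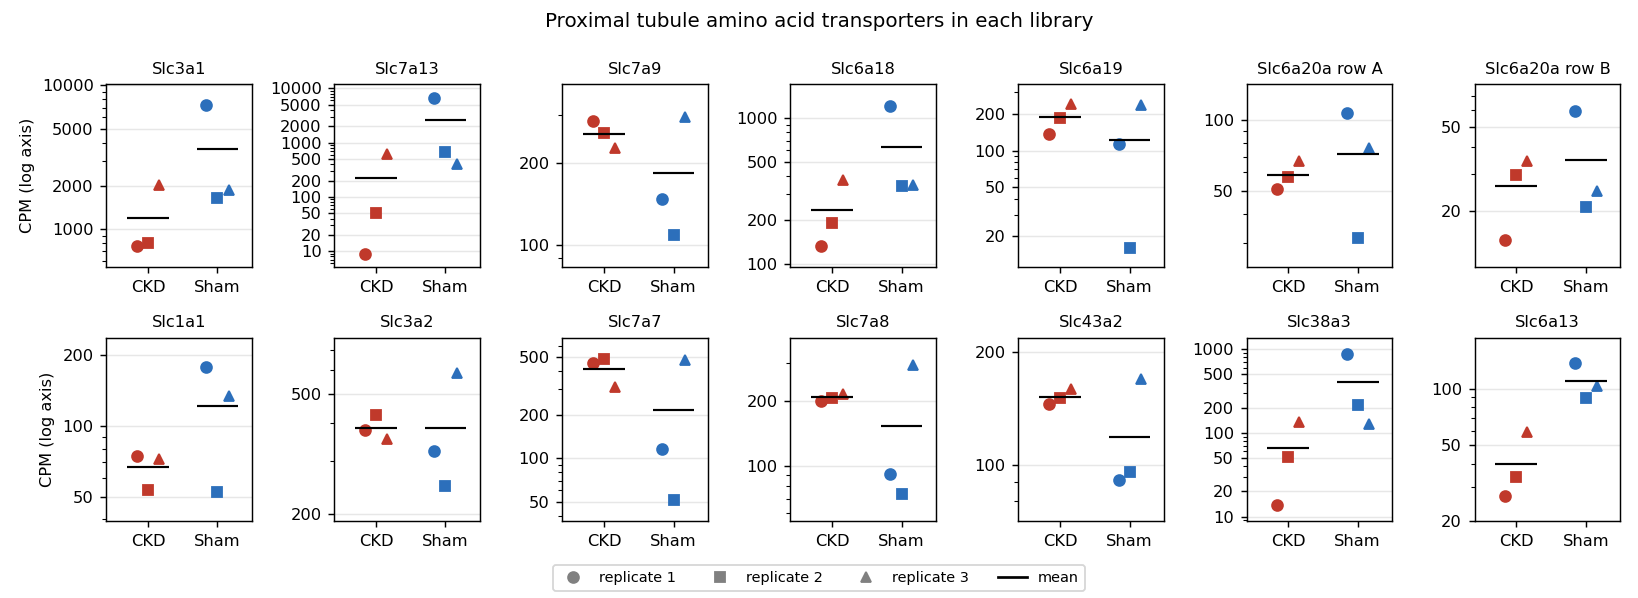
CPM of the 14 tested proximal tubule members in each library, on log axes, with the mean of each group as a line; the 8 luminal members come first and the 6 basolateral ones after them. Sham 1 is the highest library for Slc3a1, Slc7a13, Slc6a18 and Slc38a3, while Sham 3 is the highest for Slc7a9, Slc3a2, Slc7a8 and Slc43a2; row A and row B are ENSRNOG00000006010 and ENSRNOG00000068642.

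Genes of single segments of the proximal tubule are set beside the members here; they were chosen after the members' values were seen and are a description only. Slc22a7, an organic anion carrier of the straight segment in rats, had 0.675, 3.33 and 13.1 CPM in CKD 1, 2 and 3, against 82.8, 5.31 and 2.53 CPM in Sham 1, 2 and 3. Agt, angiotensinogen, which the straight segment makes in rodents, had 6.22, 35.5 and 31.8 CPM in CKD, against 177, 63.2 and 24.4 CPM in Sham. Both had their highest level in Sham 1 and their lowest in CKD 1, as Slc3a1, Slc7a12, Slc7a13, Slc6a18 and Slc38a3 did. Slc5a1, the glucose carrier SGLT1 of the late segments, had 30.4, 41.5 and 42.2 CPM in CKD, against 61.6, 13.8 and 28.3 CPM in Sham, so that it was highest in Sham 1 like the other straight-segment genes but lowest in Sham 2, with every CKD library above Sham 2 and Sham 3. Of the convoluted segment, the glucose carrier Slc5a2 (SGLT2) had 390, 397 and 351 CPM in CKD, against 181, 134 and 541 CPM in Sham. The bicarbonate carrier Slc4a4 had 808, 948 and 821 CPM in CKD, against 221, 53.0 and 1033 CPM in Sham. These genes had their highest level in Sham 3 and their lowest in Sham 2, as Slc7a9, Slc7a8 and Slc3a2 did. Among the 6 segment genes, the edgeR adjusted p ran from 0.221 (Agt) to 0.993 (Slc5a12). The part of the sampled segment in the members' values was not tested.

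Of the 14 proximal tubule members tested, 8 were highest in Sham 1, 4 in Sham 3, 1 in CKD 2 and 1 in CKD 3. The lowest library was Sham 2 for 7 of them, CKD 1 for 6 and Sham 1 for 1. Over all genes tested, Sham 1 was the highest library for 23.2%, and Sham 2 and CKD 1 were the lowest for 27.2% and 15.4%. Sham 2 also had the highest sum of the 11 distal tubule and collecting duct markers, which came to 1252 to 1321 CPM in CKD and to 873, 6327 and 2170 CPM in Sham 1, 2 and 3. Sham 1 had the highest sum of the 5 thick ascending limb markers, with 1270 to 3103 CPM in CKD and 7961, 3457 and 1942 CPM in Sham 1, 2 and 3.

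**Figure D4:**
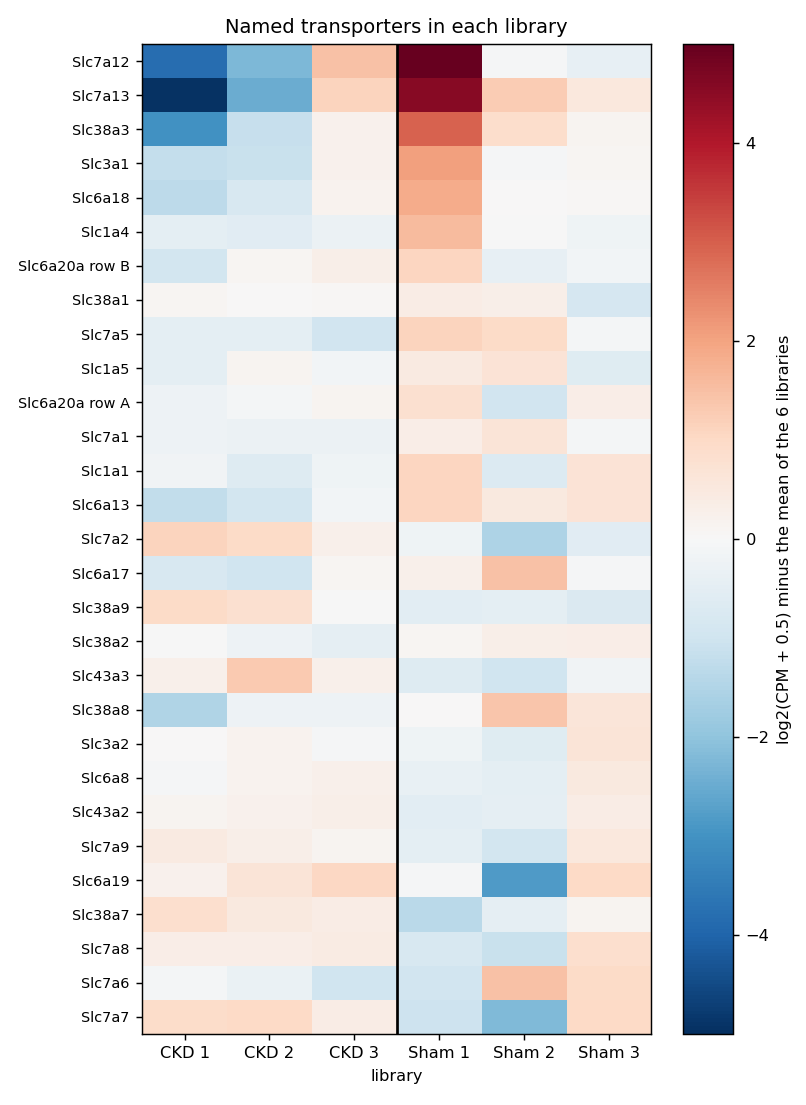
Level of the 29 named members in each library, as log2 (CPM + 0.5) minus the mean of the 6 libraries, ordered by the difference between Sham 1 and Sham 3. Members at the top (Slc7a12, Slc7a13, Slc38a3) are high in Sham 1 and low in CKD 1 and CKD 2, while those at the bottom (Slc7a7, Slc7a8) are low in Sham 1.

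On the basolateral side, Slc3a2 encodes 4F2hc (CD98), the heavy chain of the basolateral side. Its renal light chains are y+LAT1 (Slc7a7), through which basic amino acids leave the cell and whose loss causes lysinuric protein intolerance in humans, and LAT2 (Slc7a8), an exchanger of neutral amino acids. Slc3a2 had 380, 426 and 355 CPM in CKD 1, 2 and 3, against 324, 248 and 587 CPM in Sham 1, 2 and 3. All 3 CKD libraries lay between the extremes of Sham, and the log2 fold change was 0.0037 ± 0.36 (SE), with a 95% interval from -0.84 to 0.84 (edgeR adjusted p = 0.996). The sign of a value this close to 0 turned with the scaling, being -0.04 with RLE factors.

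Slc7a7 had 455, 484 and 309 CPM in CKD 1, 2 and 3, against 117, 51.5 and 482 CPM in Sham 1, 2 and 3. Slc7a8 had 201, 206 and 217 CPM in CKD, against 91.6, 74.0 and 293 CPM in Sham. For both, Sham 3 lay at or above most CKD libraries and Sham 1 and Sham 2 below all of them. Their log2 fold changes were 0.94 ± 0.73 for Slc7a7 and 0.44 ± 0.50 for Slc7a8 (SE; edgeR adjusted p = 0.474 and 0.636), or 2.24 and 1.26 without Sham 3 and 0.44 and 0.08 without Sham 2. Per kilobase, Slc7a7 stood at 0.833 to 1.15 times Slc3a2 in CKD, against 0.346, 0.1995 and 0.788 times in Sham 1, 2 and 3. That ratio was higher in every CKD library than in any Sham library, and it was not tested. Slc7a7 is also a gene of macrophages, and of 11 tested leukocyte markers 3 rose (Itgam, Cd3g and Ptprc), 0 fell and all 11 had a positive fold change. The 3 became 6 without Sham 1 and 0 without CKD 1, CKD 2, Sham 2 or Sham 3, and they were 9 in DESeq2 and 0 in limma-voom. Over all genes 10.8% were called without Sham 1, and at most 0.0442% without CKD 1, CKD 2, Sham 2 or Sham 3. The markers' sum ran from 1325 to 2844 CPM in CKD and from 331 to 942 CPM in Sham. None of the 12 listed markers was at 0 in all libraries, and their part in the level of Slc7a7 was not tested.

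Slc43a2 encodes LAT4, a facilitated carrier of branched-chain amino acids, and had 145, 151 and 160 CPM in CKD 1, 2 and 3, against 91.0, 95.6 and 169 CPM in Sham 1, 2 and 3. Here too Sham 3 was highest and the groups overlapped, and the log2 fold change came to 0.36 ± 0.28 (SE; edgeR adjusted p = 0.480). Slc38a3 encodes SNAT3, the carrier that brings glutamine into straight-segment cells for ammonia production and that is known to rise in metabolic acidosis. It had 13.6, 52.0 and 134 CPM in CKD 1, 2 and 3, against 882, 213 and 128 CPM in Sham 1, 2 and 3. CKD 3 lay just above Sham 3, so the groups overlapped. The log2 fold change was -2.62 ± 0.97 (SE; edgeR adjusted p = 0.158), or -1.40 without Sham 1 and -3.63 without CKD 3, and DESeq2 called it lower (adjusted p = 0.0153).

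Slc6a13 encodes GAT2, a basolateral carrier of GABA and taurine. It had 27.0, 33.9 and 58.7 CPM in CKD 1, 2 and 3, against 136, 89.1 and 103 CPM in Sham 1, 2 and 3. Every CKD library lay below every Sham library, and Slc6a13 had the smallest adjusted p of the members. Its log2 fold change was -1.46 ± 0.33 (SE; 95% interval -2.23 to -0.69), with an edgeR adjusted p = 0.0548. It passed in DESeq2 (adjusted p = 0.00136), with no filter on low counts (adjusted p = 0.0402) and without CKD 3 (adjusted p = 0.0367), and its adjusted p was 0.223 at most with any single library left out. Of the 6 basolateral members 4 had a positive and 2 a negative fold change and 0 passed in edgeR (0 higher and 2 lower at an unadjusted p under 0.05).

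The class of carriers that supply growing and stressed cells holds 15 members, of which 12 were tested. In edgeR 0 of the 12 passed, with 2 higher and 3 lower at an unadjusted p under 0.05 and a median log2 fold change of -0.45. Slc7a5 encodes LAT1, the exchanger of large neutral amino acids that pairs with 4F2hc in dividing cells. It had 14.4, 14.4 and 10.5 CPM in CKD 1, 2 and 3, against 44.9, 40.1 and 19.5 CPM in Sham 1, 2 and 3. Every CKD library lay below every Sham library. The log2 fold change was -1.41 ± 0.34 (SE; 95% interval -2.21 to -0.61; edgeR adjusted p = 0.0643), and it lay between -1.76 and -1.24 with each library left out. Slc7a5 passed in DESeq2 (adjusted p = 0.00301) and with no filter on low counts (adjusted p = 0.0477). Per kilobase it stood at 0.0169 to 0.0217 times Slc3a2 in CKD, against 0.0794, 0.0927 and 0.0190 times in Sham 1, 2 and 3, so that Sham 3 lay among the CKD libraries.

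Slc1a4 encodes ASCT1, an exchanger of alanine, serine and cysteine, and Slc7a1 encodes CAT1, a carrier of arginine and lysine. Slc1a4 had 8.39, 7.80 and 9.63 CPM in CKD 1, 2 and 3, against 36.7, 11.7 and 10.3 CPM in Sham 1, 2 and 3. Slc7a1 had 15.15, 15.01 and 15.01 CPM in CKD 1, 2 and 3, against 23.1, 28.7 and 17.0 CPM in Sham 1, 2 and 3. In neither gene did the groups overlap. Their log2 fold changes were -1.18 ± 0.50 for Slc1a4 and -0.61 ± 0.25 for Slc7a1 (SE; edgeR adjusted p = 0.202 and 0.190), and that of Slc1a4 was -0.40 without Sham 1. Slc38a2 encodes SNAT2, a carrier of small neutral amino acids that amino acid shortage induces, and had 160, 135 and 119 CPM in CKD, against 173, 199 and 204 CPM in Sham. Its groups did not overlap either (log2 fold change -0.48 ± 0.22, SE; edgeR adjusted p = 0.230). With library totals alone the log2 fold change was -0.05 for Slc38a2 and -0.18 for Slc7a1.

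Slc1a5, which encodes the glutamine exchanger ASCT2, had 20.9, 32.7 and 26.9 CPM in CKD, against 40.8, 47.6 and 19.7 CPM in Sham. Its groups overlapped through Sham 3, and its log2 fold change was -0.43 ± 0.35 (SE; edgeR adjusted p = 0.498) and 0.0043 with library totals alone. Slc38a1, which encodes the glutamine and alanine carrier SNAT1, had 8.15, 7.85 and 7.94 CPM in CKD, against 10.1, 9.64 and 4.08 CPM in Sham (edgeR adjusted p = 0.995). Slc7a6, which encodes the exchanger y+LAT2 and was named after its values were seen, had 8.88, 7.60 and 4.51 CPM in CKD, against 4.67, 27.2 and 19.3 CPM in Sham. Sham 1 lay below the other Sham libraries and just above CKD 3. Without Sham 1 the log2 fold change of -1.28 became -1.79 and was called (edgeR adjusted p = 0.239 and 0.0317). That fit called 10.8% of all genes, 922 of them lower. Without Sham 2 the log2 fold change of Slc7a6 was -0.81, and its edgeR adjusted p reached 0.456 with single libraries left out. Slc7a11, which encodes the cystine exchanger xCT, had 4, 2 and 0 counts in CKD 1, 2 and 3, against 0, 0 and 3 counts in Sham 1, 2 and 3, and was not tested.

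Among the members of this class that stood higher in CKD, Slc7a2 encodes CAT2, an arginine carrier of macrophages and other cells. It had 6.99, 6.26 and 3.59 CPM in CKD 1, 2 and 3, against 2.47, 0.699 and 1.83 CPM in Sham 1, 2 and 3. Slc43a3, a relative of LAT3 and LAT4 that carries purine bases, had 25.1, 51.7 and 24.9 CPM in CKD 1, 2 and 3, against 13.1, 10.2 and 18.1 CPM in Sham 1, 2 and 3. In both genes every CKD library lay above every Sham library. The log2 fold change was 1.75 ± 0.54 for Slc7a2 and 1.30 ± 0.37 for Slc43a3 (SE; edgeR adjusted p = 0.105 and 0.0871). Both passed in DESeq2 (adjusted p = 0.018 and 0.0198) and with library totals alone. The 11 tested leukocyte markers given above and the 9 fibroblast and mural cell markers all had a positive fold change. The groups overlapped for Cd14 and Adgre1 among the former and for Acta2 among the latter. The log2 fold change of Acta2 was 0.09 (edgeR adjusted p = 0.844). Of the 9 fibroblast and mural cell markers 1 rose (Col1a1), 0 fell and none was at 0 in all libraries. Their sums were 1002 to 1598 CPM in CKD and 153 to 611 CPM in Sham. Col1a1 lost its call when any library other than Sham 1 was left out, with RLE factors, with the stricter filter on low counts, in limma-voom and with mitochondrial genes removed, and DESeq2 called 6 of the 9. Over all genes 2.61% were called without CKD 3, and at most 0.0442% without CKD 1, CKD 2, Sham 2 or Sham 3. The part of leukocytes, fibroblasts and mural cells in the levels of Slc7a2 and Slc43a3 was not tested.

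**Figure D5:**
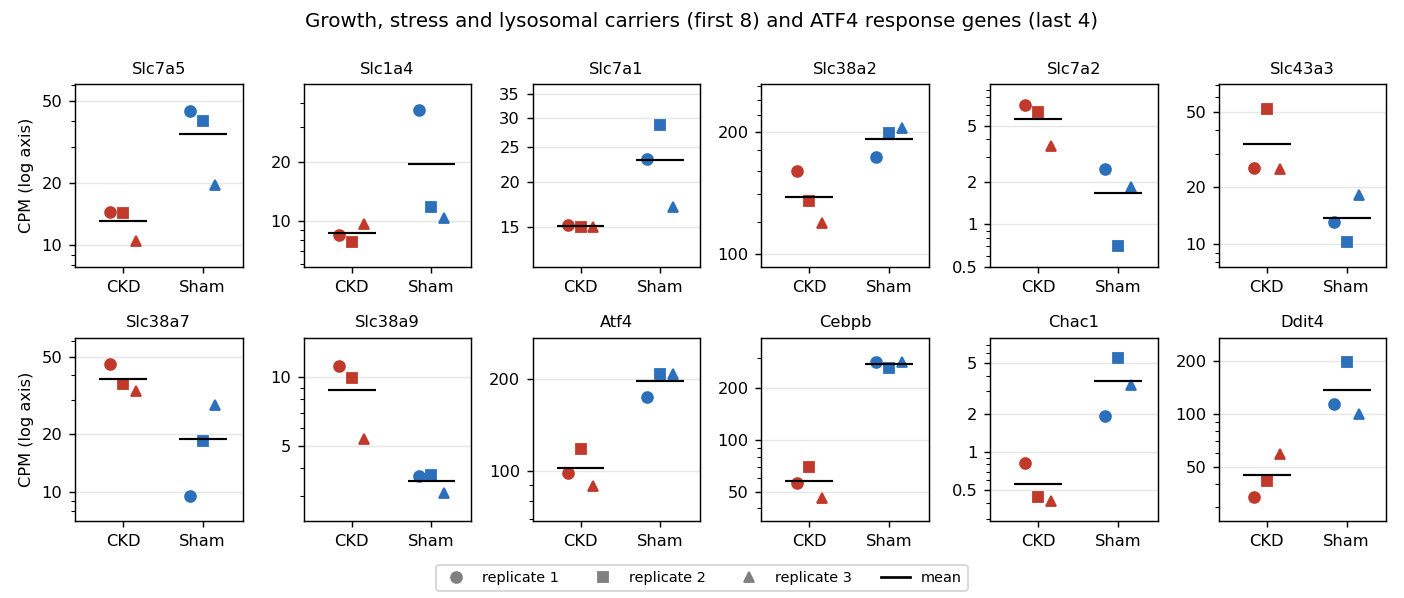
CPM in each library, on log axes, of 8 carriers of growing or stressed cells and of the lysosome, followed by 4 genes of the ATF4 response, with the mean of each group as a line. Slc7a5, Slc1a4, Slc7a1 and Slc38a2 lie lower in every CKD library than in any Sham library, as do Atf4, Cebpb, Chac1 and Ddit4, and Slc7a2, Slc43a3, Slc38a7 and Slc38a9 lie higher. The genes shown are a selection. Over all genes tested 12.4% lay lower and 18.8% higher in this way. Of the 17 tested ATF4 response genes 7 lay lower and 1 (Psph) higher without overlap, and 5 had a positive fold change.

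ATF4 is the transcription factor that amino acid shortage activates, and carriers such as Slc7a1, Slc7a5, Slc7a11 and Slc38a2 are known targets. Of 17 tested genes of the ATF4 response 3 fell and 0 rose in edgeR, where 1.15% of all genes were called lower, and the median log2 fold change was -0.74, or -0.32 with library totals alone. A positive fold change was fitted for 5 of the 17, and at an unadjusted p under 0.05 there were 2 higher and 9 lower. The 2 were Psph and Aldh18a1, enzymes of serine and proline synthesis, with log2 fold changes of 1.05 and 0.87 (edgeR adjusted p = 0.204 and 0.193), named after their values were seen. The 3 lower calls became 0 without CKD 1, CKD 2, Sham 2 or Sham 3, 1 without CKD 3 and 6 without Sham 1. They were 7 in DESeq2, 1 in limma-voom and with mitochondrial genes removed, and 2 with upper-quartile factors. Cebpb, which encodes a partner of ATF4, fell, with 56.2, 69.9 and 46.2 CPM in CKD 1, 2 and 3 against 285, 263 and 286 CPM in Sham 1, 2 and 3. Its log2 fold change was -2.27 ± 0.24 (SE; edgeR adjusted p = 0.0278). Ddit4, an inhibitor of mTORC1, fell by 1.60 ± 0.33 and Chac1, an enzyme that degrades glutathione, fell by 2.67 ± 0.58 on the log2 scale (SE; edgeR adjusted p = 0.0484 and 0.0498). Atf4 itself had 99.1, 118 and 89.9 CPM in CKD, against 174, 208 and 208 CPM in Sham, and did not pass (log2 fold change -0.94 ± 0.21, SE; edgeR adjusted p = 0.0548). Asns, asparagine synthetase and a standard target of ATF4, had 11.8, 12.1 and 7.32 CPM in CKD, against 9.80, 12.6 and 6.69 CPM in Sham (edgeR adjusted p = 0.891), and is named here after its values were seen.

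The promoter windows of Slc1a4 and Slc7a1 are shown because both carriers stood lower in every CKD library than in any Sham library and hold the letters TGATGNAAN of the composite ATF4 and C/EBP element. Slc1a4 lies on the minus strand with its window at chr14:98761513-98761812, and Slc7a1 on the plus strand with its window at chr12:11664238-11664537 (GRCr8, RefSeq). Capitals mark that element, on the opposite strand from position -236 in Slc1a4 and on the gene's strand from position -30 in Slc7a1, where an antioxidant response match stands before it.
Slc1a4: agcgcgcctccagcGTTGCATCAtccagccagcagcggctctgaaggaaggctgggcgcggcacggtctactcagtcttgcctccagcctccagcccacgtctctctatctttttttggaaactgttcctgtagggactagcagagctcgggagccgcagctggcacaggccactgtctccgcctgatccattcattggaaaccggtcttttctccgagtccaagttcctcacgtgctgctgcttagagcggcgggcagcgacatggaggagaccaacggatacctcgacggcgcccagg
Slc7a1: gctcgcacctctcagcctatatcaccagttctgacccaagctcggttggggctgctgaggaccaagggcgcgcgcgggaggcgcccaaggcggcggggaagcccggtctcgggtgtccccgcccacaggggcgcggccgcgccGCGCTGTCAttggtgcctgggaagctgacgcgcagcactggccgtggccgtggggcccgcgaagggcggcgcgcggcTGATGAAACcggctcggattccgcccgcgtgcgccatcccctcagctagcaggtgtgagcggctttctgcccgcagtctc
The element's letters stood in 3 of the 50 windows of members, the third being that of Slc38a1, and in 3.97% of all windows. The windows of Slc7a5 and Slc38a2 did not hold these letters.

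Of 7 members of lysosomal and other inner membranes 6 were tested, and 0 passed in edgeR (2 higher and 0 lower at an unadjusted p under 0.05). In 4 of the 6 every CKD library lay above every Sham library, where 18.8% of all genes tested did so. Over all 41 tested members 6 did so. The class was drawn up with earlier results of these data known, so its count is a description only. Slc38a9 encodes SNAT9, the lysosomal sensor through which arginine activates mTORC1. It had 11.2, 9.94 and 5.33 CPM in CKD 1, 2 and 3, against 3.67, 3.70 and 3.10 CPM in Sham 1, 2 and 3. Slc38a7 encodes SNAT7, which exports glutamine from the lysosome, and had 46.0, 36.3 and 33.1 CPM in CKD, against 9.60, 18.4 and 28.1 CPM in Sham. The log2 fold change was 1.34 ± 0.37 for Slc38a9 and 1.04 ± 0.38 for Slc38a7 (SE; edgeR adjusted p = 0.0818 and 0.153), and that of Slc38a7 was 0.68 without Sham 1. Slc38a9 passed in DESeq2 (adjusted p = 0.0131), and both passed with library totals alone. Slc36a1 (PAT1) and Slc36a4 (PAT4) had log2 fold changes of 0.51 ± 0.27 and 0.32 ± 0.21, and Slc38a10 and Slc38a6 of -0.22 ± 0.19 and -0.55 ± 0.31 (SE; edgeR adjusted p from 0.291 to 0.535).

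Of 26 tested genes of lysosomal amino acid sensing 1 fell and 0 rose in edgeR, a share near the 3.82% of all genes called. Sesn1, a stress-induced inhibitor of mTORC1, fell to 39.4, 36.6 and 40.2 CPM in CKD 1, 2 and 3, against 82.9, 180 and 133 CPM in Sham 1, 2 and 3. Its groups lay well apart, and the log2 fold change came to -1.77 ± 0.30 (SE; edgeR adjusted p = 0.0365). The count of 1 became 0 when any single library other than Sham 1 was left out, and 2 without Sham 1. Over all genes 10.8% were called without Sham 1, 2.61% without CKD 3 and at most 0.0442% without any other library. The median log2 fold change of the 26 sensing genes was 0.03.

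The class of carriers of neurotransmitters, glycine and creatine also takes in carriers of other amino acids, such as Slc6a14 and Slc6a15, and the orphan carrier Slc6a16. Of its 17 members 5 were tested and 0 passed in edgeR (0 higher and 1 lower at an unadjusted p under 0.05). Slc6a8, the creatine carrier, was the most abundant of them, with 561, 662 and 708 CPM in CKD 1, 2 and 3 against 457, 421 and 830 CPM in Sham 1, 2 and 3. Its groups overlapped, and its log2 fold change was 0.18 ± 0.35 (SE; 95% interval -0.64 to 0.996; edgeR adjusted p = 0.802). Slc6a17, known as a carrier of synaptic vesicles and named after its values were seen, had 22.7, 19.5 and 42.3 CPM in CKD, against 47.5, 111 and 38.4 CPM in Sham. CKD 3 exceeded Sham 3, and the log2 fold change of -1.22 ± 0.47 (SE; adjusted p = 0.170 in edgeR) was -0.64 without Sham 2. The serotonin carrier Slc6a4, the glycine carrier Slc6a9 and the glutamate carrier Slc1a3 had log2 fold changes of -0.92, 0.93 and 0.90 and overlapping groups (edgeR adjusted p = 0.306, 0.303 and 0.414).

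Among the 21 members that were not tested, Slc7a14, Slc6a14 and Slc36a3 had 0 counts in all libraries, which allows up to 0.145 to 0.154 CPM in a CKD library and up to 0.2 to 0.211 CPM in a Sham library (3 counts; counting error only). Totals of the 17 untested members with any counts ran from 1 count (Slc1a6) to 36 counts (Slc1a2) over the 6 libraries. Slc38a8, which encodes SNAT8, passed the filter with 113 counts, and had 0, 0.696 and 0.717 CPM in CKD against 0.934, 3.28 and 1.69 CPM in Sham (log2 fold change -2.05 ± 1.02, SE; edgeR adjusted p = 0.265). Slc38a4, Slc7a10, Slc7a4 and Slc43a1 had edgeR adjusted p-values from 0.476 to 0.885. Slc7a6os, the gene that is no carrier, had 10.999, 9.74 and 12.3 CPM in CKD, against 17.9, 15.1 and 13.7 CPM in Sham (log2 fold change -0.50 ± 0.24, SE; edgeR adjusted p = 0.246), and without strand information its reads cannot be told from those of Slc7a6 where the genes overlap.

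By family, the median log2 fold change was -0.65 over 4 tested Slc1 genes, -0.79 over 2 Slc3 genes, -0.42 over 9 Slc6 genes, -0.56 over 12 Slc7 genes, 0.41 over 2 Slc36 genes, -0.22 over 9 Slc38 genes and 0.62 over 3 Slc43 genes. Within Slc7 the range was from -3.56 (Slc7a12) to 1.75 (Slc7a2), and within Slc38 from -2.62 (Slc38a3) to 1.34 (Slc38a9). All 3 Slc43 genes had a positive fold change and 0 passed in edgeR (1 higher at an unadjusted p under 0.05).

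Of 13 tested partners of the carriers and peptide or aromatic amino acid carriers, 0 passed in edgeR (1 higher and 1 lower at an unadjusted p under 0.05; 1 higher and 1 lower in DESeq2), with a median of -0.17. Slc15a3, a histidine and peptide carrier of lysosomes in immune cells, had 24.8, 16.9 and 8.71 CPM in CKD 1, 2 and 3, against 8.27, 2.31 and 4.79 CPM in Sham 1, 2 and 3 (edgeR adjusted p = 0.112). Its groups did not overlap, and it has the same leukocyte markers beside it. Cltrn, collectrin, the renal partner of B0AT1, had 778, 600 and 720 CPM in CKD, against 824, 248 and 1100 CPM in Sham (edgeR adjusted p = 0.964) and is named after its values were seen. As for Slc6a19, Sham 2 was its lowest library.

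Of 20 tested genes that use glutamine, cystine or branched-chain amino acids 1 rose and 0 fell in edgeR, where 2.67% of all genes were called higher and 1.15% lower. A negative fold change was fitted for 16 of them, with a median of -0.47, or -0.0645 with library totals alone. DESeq2 called 1 of the 20 higher and 3 lower, where it called 16.2% of all genes. Bcat1, the cytosolic enzyme that transaminates branched-chain amino acids, rose to 5.02, 6.86 and 3.12 CPM in CKD 1, 2 and 3, against 0.400, 0.699 and 0.985 CPM in Sham 1, 2 and 3. Every CKD library lay above every Sham library (log2 fold change 2.84 ± 0.53, SE; edgeR adjusted p = 0.0399). Bcat1 lost its call in limma-voom, with a replicate block and when CKD 1, CKD 2, Sham 2 or Sham 3 was left out. Over all genes 1.27% were called in limma-voom, 0.0651% with the replicate block and at most 0.0442% without any of those libraries. Gclc, which makes the first step of glutathione synthesis from cysteine and is named after its values were seen, had 124, 187 and 1740 CPM in CKD, against 13503, 2090 and 1866 CPM in Sham (edgeR adjusted p = 0.192). Like Slc3a1 and Slc7a13, Gclc was highest in Sham 1 and lowest in CKD 1.

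The tissue label was checked against markers. Of the 6 podocyte, 6 endothelium, 5 thick ascending limb and 11 distal tubule and collecting duct markers, all were tested, none was at 0 and 0 passed in edgeR or limma-voom. Their median log2 fold changes were 0.24, -0.42, -0.90 and -1.18 in that order. All 5 thick ascending limb and all 11 distal and collecting duct markers had a negative fold change. The median was -0.23 without Sham 1 for the thick ascending limb and -0.13 without Sham 2 for the distal tubule and collecting duct. Without Sham 1, 2 distal and collecting duct markers were called lower, where 10.8% of all genes were called. At an unadjusted p under 0.05 there were 1 higher podocyte marker, 2 lower endothelium markers, 1 lower thick ascending limb marker and 4 lower distal and collecting duct markers, and DESeq2 called 1, 1, 1 and 4 of them in the same order and directions. The sums ran from 370 to 656 CPM in CKD and from 222 to 774 CPM in Sham for podocytes, and from 307 to 418 CPM in CKD and from 406 to 517 CPM in Sham for endothelium.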

How the data were processed

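Renal tissue RNA was extracted with TRIzol and made into libraries with a VAHTS Universal V5 kit, per the labels' protocols. The authors deposited raw counts per gene with their gene lengths. HTSeq 0.11.2, HISAT2 2.1.0, fastp 0.20.1 and the build Rnor_6.0 are named, without order, per the submitters' processing notes; strand setting and poly(A) selection are not given in the sources used here.

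Columns were matched to libraries by title. The 15371 genes kept by filterByExpr (minimum count 10, minimum total 15) were scaled with TMM and fitted in edgeR 4.0.16 (limma 3.58.1, R 4.3.3) by a robust quasi-likelihood model with group as its only term, Benjamini-Hochberg adjusted over all genes. A standard error is the size of the log2 fold change over the root of its F. On simulated counts of 15371 genes for CKD against Sham the test called 61% of 100 genes simulated with a 4-fold change, 3% of 100 with a 2-fold change and 9 unchanged genes. The changed genes were drawn only from genes with higher counts, so these shares do not cover members with few counts. The simulation gave CKD and Sham the same spread, whereas the real Sham libraries varied more.

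Members, classes, lists and motifs were chosen with earlier results of these data known. Named members were all of the 2 proximal tubule classes, any past the threshold, any with a log2 fold change of at least 1 and no overlap, and Slc7a11, Slc7a5, Slc1a5, Slc38a1, Slc38a2, Slc7a1 and Slc6a8. Alternatives were RLE, upper-quartile or no factors, other filters, no robust step, DESeq2 1.42.0, limma-voom, mitochondrial genes removed, a replicate block, an adjusted p under 0.1 and each library left out. Some results under these rules are not reported here.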

Additional observations from a re-analysis of the deposited data

How the results depend on the processing

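The counts called were 0 higher and 0 lower members and 411 higher and 176 lower genes in all. Members called higher came to 4 with library totals alone (Slc38a7, Slc38a9, Slc43a3 and Slc7a2), 3 in DESeq2 and 2 at an adjusted p under 0.1, and members called lower to 2 with no filter, 3 in DESeq2 and 2 at an adjusted p under 0.1. With each library left out the members called higher stayed at 0 and those called lower ran from 0 to 1 (Slc6a13 without CKD 3, Slc7a6 without Sham 1). Over all genes the calls were 2047 higher with library totals alone, 1379 higher and 1118 lower in DESeq2, 120 and 75 in limma-voom, and 1162 and 631 at an adjusted p under 0.1, and they ran from 0 to 789 higher and from 0 to 922 lower with each library left out. They came to 0 without CKD 1 or CKD 2, 2 lower without Sham 2, and 1 higher and 6 lower without Sham 3. There were 340 higher and 73 lower without CKD 3, and 789 higher and 922 lower without Sham 1. The fit with a replicate block called 0 members, and 4 genes higher and 6 lower in all; CKD and Sham libraries of the same number did not deviate together (correlation -0.21, 0.005 and -0.16), so the numbers were not taken as pairs. Signs turned for Slc1a5 with library totals alone (0.0043), for the first Slc6a20a gene with library totals alone (0.11), for Slc38a1 (-0.054 with RLE factors and in DESeq2, -0.0538 without mitochondrial genes, -0.032 with no filter) and for Slc3a2 (-0.0412 with RLE factors and in DESeq2, -0.0406 without mitochondrial genes, -0.0205 with no filter). With each library left out, log2 fold changes that turned sign ran from -0.0338 to 0.49 for Slc6a8, -0.37 to 0.16 for Slc38a1, -0.27 to 0.37 for Slc3a2, -0.69 to 0.0812 and -0.73 to 0.16 for the 2 Slc6a20a genes and -6.62 to 0.20 for Slc7a12. The cause of these differences was not tested. Among the other values of named members none lost a call, since 0 had passed, and 18 gained one. With 3 libraries a group, 2-fold changes in single genes were mostly missed on simulated counts.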
